A study of Mus musculus with 2 samples.

Results

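Interferon-stimulated genes are the genes that cells switch on when interferon reaches them, and their levels were followed across the cell classes of mouse dorsal root ganglia. A list of 34 such genes was matched by symbol to the deposited feature tables of 32285 genes. Of these, 32 were found, and Mx1 and Mx2 were not analysed here. The ganglia, which hold the cell bodies of sensory neurons, came from mice at postnatal day 4 and from all axial levels, and were dissociated with enzymes before single-cell 3′ RNA sequencing. The flox library came from mice with 2 floxed Ptges3 alleles (Ptges3 flox/flox). The cKO library came from mice that carried the same floxed alleles and also a Cre transgene (Dhh CRE+, Ptges3 flox/flox), so both libraries hold floxed Ptges3 and differ in the Cre. Ptges3 encodes p23, a cochaperone of HSP90 also described as a prostaglandin E synthase, and Dhh, desert hedgehog, is expressed in the Schwann cell lineage. The study asks how prostaglandin E2 from Schwann cells acts on developing sensory neurons. The number of mice per library, their sex and any pooling are not given in the labels. With 1 library per genotype there is no test between the genotypes, and every interval below is a 95% interval of counting error only.

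Type I interferons bind the receptor pair Ifnar1 and Ifnar2, whose kinases are Jak1 and Tyk2. Signalling from the receptor leads to a complex that holds Stat2 and Irf9 and binds the interferon-stimulated response element (ISRE) in the promoters of antiviral genes, while type II interferon acts at GAS elements. MHC class I and its peptide-loading genes are among the targets, and tissues can hold a low level of the programme without infection.

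The promoters show the element that many of the listed genes share. Motifs were sought in RefSeq windows from 250 bases before to 50 after each gene start (300 bases, build GRCm38.p6), on both strands, and 28 of the 34 genes had a window. The core of the ISRE, 2 copies of GAAA with 2 bases between them, was found in 15 of these 28 genes (53.6%), against 3.99% of all 27025 genes with a window (3.44% of the 32851 windows). The letters TTCNNNGAA of the GAS element were found in 8 of 28 (28.6%), against 9.55% of those genes. A match describes the letters and is no evidence that a factor bound there. Stretches around the match are shown for 5 antiviral members described below (Isg15, Ifit1, Ifit3, Bst2, Rsad2), and for Stat2 and B2m, which carry the element too. Capitals mark ISRE core matches on either strand, and each stretch lies before the gene start and reads 5′ to 3′ on the strand of the gene.
Isg15 (chr4:156200855-156200904, minus strand): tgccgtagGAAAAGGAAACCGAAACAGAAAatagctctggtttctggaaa
Ifit1 (chr19:34640784-34640833, plus strand): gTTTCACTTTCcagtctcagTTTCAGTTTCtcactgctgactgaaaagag
Ifit3 (chr19:34583387-34583436, plus strand): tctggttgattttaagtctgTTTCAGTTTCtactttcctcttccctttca
Bst2 (chr8:71537567-71537616, minus strand): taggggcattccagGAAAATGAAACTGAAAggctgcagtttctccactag
Rsad2 (chr12:26456543-26456592, minus strand): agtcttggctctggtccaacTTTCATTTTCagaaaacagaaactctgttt
B2m (chr2:122147528-122147577, plus strand): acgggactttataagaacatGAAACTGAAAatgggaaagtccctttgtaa
Stat2 (chr10:128270256-128270305, plus strand): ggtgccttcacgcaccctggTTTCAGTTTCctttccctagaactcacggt
Isg15 holds 3 matches, which overlap, and Ifit1 and Bst2 hold 2 each. The match nearest the gene start begins 66 bases before it in Isg15, 85 bases in Ifit1 and 124 bases in Bst2. No ISRE core lies within the window of H2-D1, H2-K1, Irf1 or Irf7.

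After filtering, 8107 flox and 7866 cKO cells remained, with medians of 6886 and 4319.5 unique molecular identifiers (UMIs, each a counted RNA molecule) per cell, and 23 cell barcodes were shared by both libraries. Classes were set per cell by marker genes, and the leading genes of each class held 3 or more markers of its cell type. In Fabp7-positive, other and cycling glia these were Sostdc1, Foxd3 and Egfl8, which mark the whole Schwann cell lineage. Fabp7 and the cycling markers were not among the leading genes there. Since the markers also set the classes, this is no independent check of them. Ptges3 was lower in the 4 glial classes of the cKO library, with log2 ratios from -1.24 to -0.77, and higher in the other 5 classes (0.31 to 0.59). The 3′ counts can include RNA from an allele without its floxed exons. Neuron-like cells differed most in depth, with medians of 45660 UMIs in the flox and 8954 UMIs in the cKO library. Oligodendrocyte-like (494) and astrocyte-like (168) cells came from the flox library, and the cKO library held 0 and 2 of them. RNA of another cell type was found in macrophage-like cells, at a higher level in the flox library: Hbb-bs, a haemoglobin gene of red blood cells, stood at 299.6 CPM (UMIs of the gene per 1000000 UMIs of the class) in flox macrophage-like cells and at 14.6 CPM in those of the cKO library. The part of such RNA in the results was not tested. Below every one of the 9 classes compared here in the flox library were flox oligodendrocyte-like cells (median 8171 UMIs), with Isg15 at 2.16 CPM (1.04 to 3.98) and Bst2 at 3.46 CPM. Their Ifitm3, at 8.22 CPM (5.82 to 11.28), was not apart from that of flox neuron-like cells, at 8.85 CPM (8.17 to 9.58).

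In the cKO library many interferon-stimulated genes were lower in macrophage-like, mural-like, fibroblast-like and glial cells, for Fabp7-positive glia less so within a shared cluster, while endothelial-like cells held members in both directions and neuron-like cells had 1 lower member. A gene counted as measured in a class where both libraries together held 50 or more of its UMIs, and as lower or higher at a log2 ratio of 0.5 or more in size. Over 9 classes the 32 members gave 219 measured pairs of gene and class, of which 95 were lower and 21 higher in the cKO library, and 10 members were measured in every class. In macrophage-like cells 16 of 27 measured members were lower and 0 higher, beside 21.2% and 11.6% of all measured genes. In fibroblast-like cells 17 of 29 were lower and 1 higher (all genes 18.2% and 8.36%), and in mural-like cells, the pericytes and smooth muscle of vessels, 7 of 10 and 1 (26.3% and 16.0%). Among glia the counts were 13 of 23 lower and 0 higher in myelinating-Schwann-like cells (16.4% and 12.7%), and 14 of 24 and 1 in the glia with no myelinating, cycling or Fabp7 call, called other glia here (18.1% and 9.38%). They were 10 of 23 and 3 in cycling glia (15.5% and 7.67%) and 9 of 24 and 3 in Fabp7-positive glia (17.6% and 6.47%). Endothelial-like cells had 8 of 27 lower and 6 higher, near the 26.0% and 18.9% of all genes, and neuron-like cells had 1 of 32 and 6 (4.43% and 9.20%).

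The median log2 ratio of the measured members was -0.80 for macrophage-like, -0.78 for myelinating-Schwann-like, -0.77 for fibroblast-like and -0.69 for mural-like cells, where the median of all genes lay between -0.13 and -0.01. It was -0.57 in other glia, -0.44 in cycling glia, -0.41 in Fabp7-positive glia, -0.05 in endothelial-like and 0.09 in neuron-like cells. Members under the 50-UMI minimum were summed so that each is accounted for, and in myelinating-Schwann-like cells the 9 such genes together held 211 flox and 16 cKO UMIs (14.9 and 5.83 CPM). In mural-like cells 22 members were under the minimum, with 330 and 98 UMIs (371 and 225 CPM, log2 ratio -0.72, -1.06 to -0.39).

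**Figure D1:**
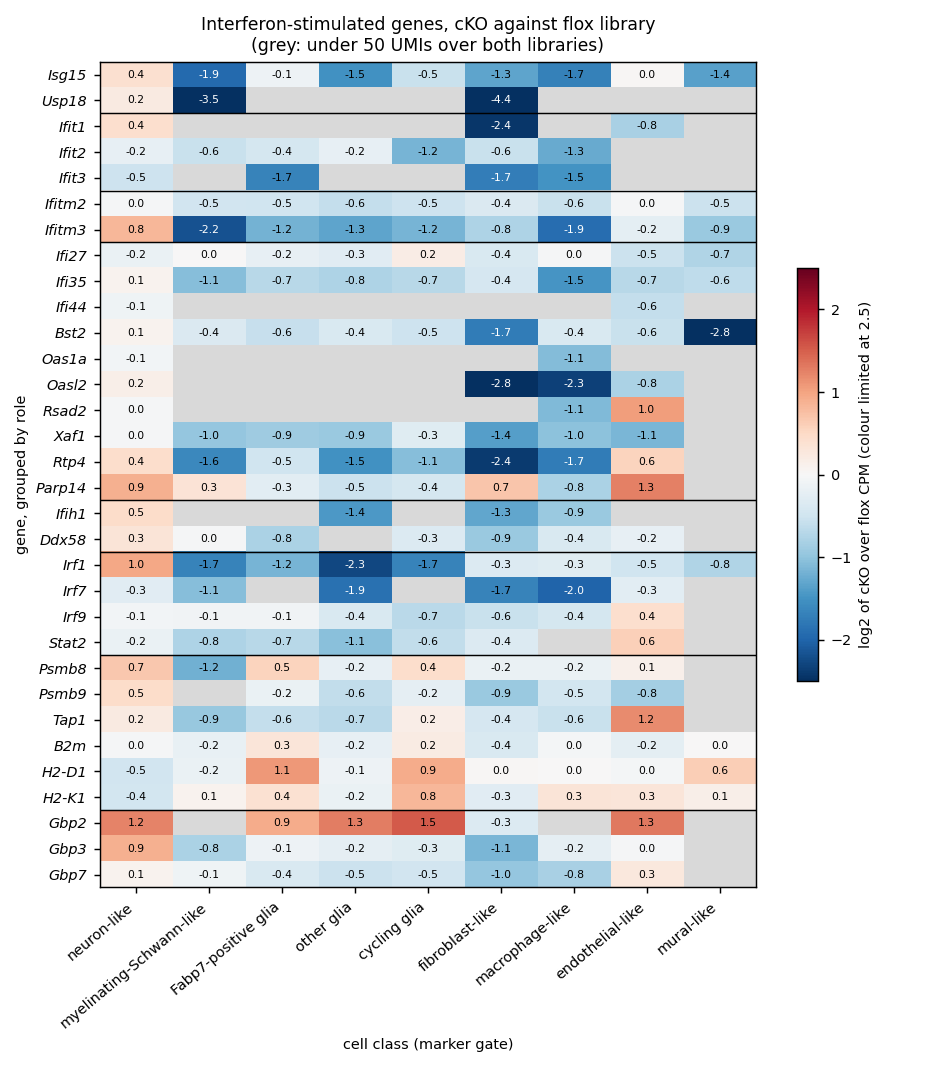
Log2 ratio of cKO over flox level for the 32 members (vertical axis, grouped by role) in 9 cell classes (horizontal axis), with blue lower and red higher in the cKO library and grey for genes under 50 UMIs. Blue marks many measured antiviral rows of the macrophage-like, fibroblast-like and glial columns. Several antiviral rows are grey in the glial columns, and Parp14 is red in the fibroblast-like column. B2m stays pale in every column and Gbp2 is red in 5 of its 6 measured classes.

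The libraries fill different clusters within some classes, which bears on how far a class compares like with like. Flox myelinating-Schwann-like cells sat mostly in clusters 4 and 7 (868 and 651 cells) and those of the cKO library in cluster 10 (478 cells). Other glia sat in cluster 2 (557 flox cells) and cluster 3 (571 cKO cells). Fabp7-positive glia shared cluster 0 (320 flox and 581 cKO cells) but also held 261 flox cells of cluster 2 and 222 cKO cells of cluster 3. Macrophage-like, endothelial-like and cycling cells of both libraries met in single clusters (14, 18 and 1). Within cluster 14, with 368 flox and 161 cKO cells, 20 of 27 measured members were lower in the cKO library and 0 higher, beside 20.3% of all genes lower there. In Fabp7-positive glia of cluster 0, 3 of 17 measured members were lower and 2 higher, and the lower share is close to the 18.7% of all genes. Cycling glia of cluster 1 had 9 of 23 lower and 4 higher, beside 15.1% and 7.72% of all genes. Endothelial-like cells of cluster 18 had 9 of 27 lower and 6 higher, beside 25.4% and 18.7%. A further 42 flox macrophage-like cells and 0 cKO ones lay in cluster 32.

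ISG15, a ubiquitin-like protein joined to other proteins after interferon, and USP18, the protease that removes it and restrains the receptor, form the first group. Isg15 (ENSMUSG00000035692, GRCm38 chromosome 4, 156199424 to 156200818, minus strand) was lower in 6 of its 9 measured classes. Flox macrophage-like cells held 164 CPM (147 to 183) of it and cKO ones 51.2 CPM (35.6 to 71.2), in log2 terms -1.68 (interval -2.23 to -1.18). Myelinating-Schwann-like cells had 107 and 28.1 CPM (-1.94, -2.29 to -1.61), and mural-like cells 230.4 and 89.4 CPM (-1.37, -1.90 to -0.87). None of these 3 pairs of intervals overlapped. Endothelial-like cells held the most Isg15 of all classes in both libraries, 301 and 307 CPM (0.03, -0.19 to 0.24), with no difference beyond counting error. In Fabp7-positive glia the levels were 96.8 and 89.1 CPM (-0.12, -0.38 to 0.14), and within their shared cluster 0 they were 92.8 and 106 CPM. Other glia, in contrast, had 89.2 and 31.2 CPM (-1.52, -1.87 to -1.17). Cycling glia had 68.1 and 46.6 CPM (-0.55, -0.88 to -0.22), fibroblast-like cells 38.8 and 15.5 CPM (-1.32, -1.65 to -1.01) and neuron-like cells 6.04 and 7.99 CPM (0.40, 0.20 to 0.60). Usp18 was measured in 3 classes and lower in 2. It held 119 flox and 2 cKO UMIs in myelinating-Schwann-like cells (-3.53, -6.59 to -1.64) and 78 and 2 UMIs in fibroblast-like cells (-4.43, -7.51 to -2.53).

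The IFIT genes encode proteins that bind viral RNA lacking the host cap. Ifit3 was lower in each of the 4 classes where it was measured, the neuron-like class among them. In macrophage-like cells it stood at 57.8 and 20.5 CPM (-1.50, -2.41 to -0.69), in fibroblast-like cells at 15.8 and 4.80 CPM (-1.72, -2.32 to -1.16) and in Fabp7-positive glia at 14.6 and 4.61 CPM (-1.66, -2.72 to -0.72). In myelinating-Schwann-like cells it had 37 flox and 0 cKO UMIs. A floor of 3 cKO UMIs puts the log2 ratio at -1.26, and the upper end of its exact interval is -0.89. Ifit2 was lower in 4 of 7 classes, at the furthest in macrophage-like cells (-1.27, -2.55 to -0.19). Ifit1 was lower in fibroblast-like (-2.43, -3.70 to -1.39) and endothelial-like cells (-0.82, -1.60 to -0.10) and stood at 12.1 and 16.3 CPM in neuron-like cells. Reads of Ifit3 and its near copy Ifit3b, and of the Oas1, Gbp and class I MHC families, may be split or lost between copies.

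Among the other antiviral effectors, Oasl2, an oligoadenylate synthetase-like protein, had the lowest ratio in macrophage-like cells, with 59.2 CPM among flox and 11.7 CPM among cKO cells (-2.34, -3.58 to -1.32). In the same cells Rtp4, an interferon-induced transporter protein, was at 113 and 33.6 CPM (-1.74, -2.43 to -1.12). Ifi35 was at 69.4 and 24.9 CPM (-1.48, -2.30 to -0.75), and Oas1a, which makes the second messenger that activates RNase L, at 46.6 and 21.9 CPM (-1.09, -1.98 to -0.29). Of the 9 measured effectors 7 were lower in macrophage-like cells, beside 21.2% of all genes, and the intervals of the 4 named here leave out 0. The immediate early gene Fos, which dissociation can raise, was also lower in these cells, at 1781 and 344 CPM, and its part in the result was not tested. Xaf1, a proapoptotic interferon target, was lower in 6 of 8 classes, with fibroblast-like cells at 25.3 and 9.76 CPM (-1.37, -1.79 to -0.98).

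Bst2, or tetherin, holds budding virus at the cell surface. It showed the lowest ratio of any member measured in all 9 classes, in mural-like cells, with 1753 CPM (1667 to 1842) among flox and 245 CPM (201 to 296) among cKO cells (-2.84, -3.13 to -2.55). Mural-like cells sat in 2 clusters that the libraries filled unequally, 49 flox and 104 cKO cells in cluster 23 and 66 and 48 cells in cluster 27. Bst2 was higher in cluster 27, and the difference held in both, at 2316 and 365 CPM (-2.67, -3.05 to -2.30) in cluster 27 and 425 and 167 CPM (-1.35, -1.91 to -0.80) in cluster 23. In fibroblast-like cells it was at 118 and 35.2 CPM (-1.75, -1.96 to -1.54), and in macrophage-like cells at 772 and 595 CPM (-0.38, -0.54 to -0.22), a smaller step. Endothelial-like cells had 577 and 391 CPM and neuron-like cells 38.04 and 40.6 CPM. In glia the ratios of Bst2 ran from -0.57 in Fabp7-positive glia (130.4 and 87.5 CPM) over -0.52 in cycling glia (90.8 and 63.5 CPM) and -0.38 in other glia (129.5 and 99.6 CPM) to -0.36 in myelinating-Schwann-like cells (75.1 and 58.3 CPM). The heat shock gene Hspa1a, at 361 and 1810.1 CPM, was higher in the same cKO mural-like cells, and its part in the Bst2 result was not tested.

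IFITM proteins block the fusion of viral envelopes with endosomes. Ifitm3 was lower in 7 of 9 classes and higher in neuron-like cells. Macrophage-like cells had 1393 and 371 CPM (-1.91, -2.10 to -1.72), myelinating-Schwann-like cells 60.9 and 13.5 CPM (-2.17, -2.69 to -1.70) and mural-like cells 1706 and 891 CPM (-0.94, -1.10 to -0.77). Ifitm2, its neighbour on chromosome 7, moved less, from -0.59 in other glia to -0.03 in endothelial-like cells. In macrophage-like cells Ifitm2 stood at 809.5 and 553 CPM (-0.55, -0.72 to -0.39).

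**Figure D2:**
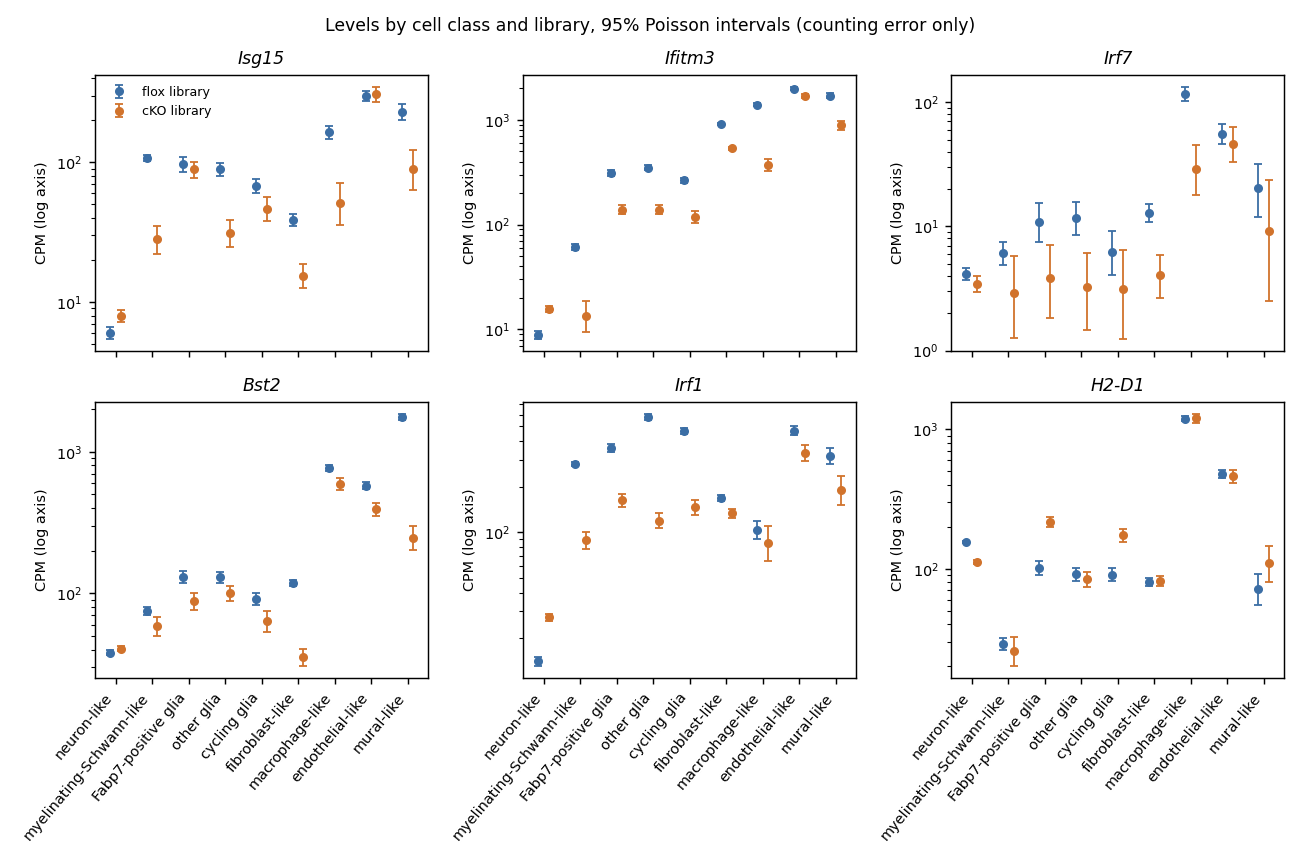
Level in CPM (log axis) of 6 members in each class, with points for the flox (blue) and cKO (orange) library and bars for the 95% Poisson interval. Isg15, Ifitm3, Irf7 and Bst2 sit lower in the cKO library in macrophage-like cells, where H2-D1 is level, and endothelial-like Isg15 is level as well.

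Of the transcription factors, Irf7, which amplifies type I interferon production, was lower in 4 of 6 classes and higher in none. Its level was 117 CPM (102 to 132) among flox and 29.2 CPM (17.9 to 45.2) among cKO macrophage-like cells (-1.995, -2.73 to -1.34). Fibroblast-like cells had 12.9 and 4.03 CPM (-1.68, -2.34 to -1.07), other glia 11.7 and 3.22 CPM (-1.86, -3.08 to -0.81), and endothelial-like cells 55.6 and 46.2 CPM (-0.27, -0.83 to 0.27). The Irf7 intervals of the libraries overlap in endothelial-like cells and not in the other 3. Irf7 was also lower in myelinating-Schwann-like cells, at 6.08 and 2.92 CPM (-1.06, -2.32 to -0.02), and was at 4.15 and 3.43 CPM in neuron-like cells (-0.28, -0.55 to -0.002). Stat2 and Irf9, partners in the ISRE-binding complex, moved less. Stat2 ranged from 45.3 and 21.9 CPM in other glia (-1.05, -1.50 to -0.62) to 39.2 and 59.2 CPM in endothelial-like cells (0.59, 0.05 to 1.12). It was at 28.1 and 16.4 CPM in myelinating-Schwann-like cells (-0.78, -1.26 to -0.33), 29.9 and 18.4 CPM in Fabp7-positive glia (-0.70, -1.24 to -0.17) and 36.8 and 23.97 CPM in cycling glia (-0.62, -1.09 to -0.16). Stat2 was within 0.5 log2 in fibroblast-like (21.7 and 17.05 CPM) and neuron-like cells (22.4 and 19.9 CPM). Irf9 was lower in 2 of 8 classes and higher in none.

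Irf1, which is induced by type II interferon and also by other signals, had another pattern. It was lower in the 4 glial classes and in mural-like cells and higher in neuron-like cells. Other glia had 578 and 119.7 CPM (-2.27, -2.44 to -2.11), myelinating-Schwann-like cells 283 and 88.6 CPM (-1.68, -1.87 to -1.49) and Fabp7-positive glia 363 and 163 CPM (-1.15, -1.32 to -0.99). Neuron-like cells held less Irf1, 14.02 and 27.5 CPM (0.97, 0.85 to 1.09). In macrophage-like cells, where Irf7 differed most, Irf1 was at 104 and 84.8 CPM (-0.29, -0.74 to 0.13). The 3 fibroblast-like clusters with cells of both libraries went different ways: Irf1 stood at 118 and 157 CPM in cluster 5 (0.41, 0.20 to 0.61), at 282 and 116 CPM in cluster 11 (-1.28, -1.50 to -1.06) and at 32.3 and 126 CPM in cluster 13 (1.96, 1.53 to 2.41). Genes of dissociation and stress differed as well: in other glia Fos was at 3549 and 826 CPM, Socs3 at 525 and 61.6 CPM and the heat shock gene Hspa1a at 417 and 932 CPM. Fos was lower in the 4 glial classes and in mural-like cells. It was also lower in macrophage-like, endothelial-like and fibroblast-like cells, where Irf1 stayed within 0.5 log2. In neuron-like cells, where Irf1 was higher, Fos was at 257 and 280 CPM. Socs3 and Hspa1a were higher there in the cKO library, at 54.6 and 81.1 CPM and at 16.9 and 134 CPM. The part of these stress genes in the Irf1 result was not tested.

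The cytosolic RNA sensors Ifih1 (MDA5) and Ddx58 (RIG-I) detect viral RNA and start interferon production. Ifih1 was lower in 3 of 4 classes, at 8.77 and 3.56 CPM in fibroblast-like cells (-1.30, -2.02 to -0.63). Ddx58 was lower in 2 of 7, at 22.95 and 12.1 CPM in fibroblast-like cells (-0.92, -1.31 to -0.56).

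In macrophage-like cells 1 of the 6 measured members of antigen processing and presentation was lower, near the 21.2% of all genes. Their median ratio of -0.10 equals that of all genes (-0.10). These members are the immunoproteasome subunits Psmb8 and Psmb9, the peptide transporter Tap1, the class I heavy chains H2-D1 and H2-K1 and their light chain B2m. In macrophage-like cells B2m was at 1300.0 and 1263 CPM (-0.04, -0.15 to 0.07) and H2-D1 at 1189 and 1200.2 CPM (0.01, -0.10 to 0.13). H2-K1 was at 582 and 732 CPM (0.33, 0.18 to 0.48) and Psmb8 at 303 and 270.4 CPM (-0.16, -0.41 to 0.07). B2m was neither lower nor higher by 0.5 log2 in any of 9 classes, with ratios from -0.38 in fibroblast-like cells (232 and 178 CPM) to 0.30 in Fabp7-positive glia (298 and 367 CPM). B2m stood at 541 and 458 CPM in endothelial-like, 256 and 259 CPM in mural-like and 71.8 and 70.3 CPM in neuron-like cells. The other glial classes had 247 and 217 CPM (myelinating-Schwann-like), 351 and 306 CPM (other glia) and 279 and 322 CPM (cycling glia). H2-D1 was higher in 3 classes of the cKO library and lower in none. Fabp7-positive glia had 102 and 216 CPM (1.09, 0.88 to 1.29), cycling glia 91.1 and 174 CPM (0.93, 0.72 to 1.14) and mural-like cells 71.9 and 110.0 CPM (0.61, 0.04 to 1.18). Within cluster 0, the Fabp7-positive cells of both libraries had 116 and 253 CPM (1.12, 0.87 to 1.38), as far apart as in the whole class. Other glia had 91.6 and 84.2 CPM and neuron-like cells 156 and 112 CPM (-0.48, -0.53 to -0.44). H2-D1 was at 80.2 and 81.99 CPM in fibroblast-like, 476 and 460.4 CPM in endothelial-like and 28.9 and 25.9 CPM in myelinating-Schwann-like cells, with ratios of 0.03, -0.05 and -0.16.

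The guanylate-binding proteins are large GTPases that coat intracellular pathogens. Gbp2 was higher in 5 of 6 classes of the cKO library and lower in none, whereas Gbp7, its neighbour on chromosome 3, was lower in 3 of 8 and higher in none. Gbp2 stood at 7.17 and 20.9 CPM in cycling glia (1.54, 0.85 to 2.25), 10.9 and 26.5 CPM in other glia (1.28, 0.71 to 1.87) and 28.8 and 72.2 CPM in endothelial-like cells (1.33, 0.78 to 1.87). In the remaining class, fibroblast-like cells, it was at 18.7 and 14.9 CPM (-0.33, -0.69 to 0.02). Gbp7 in fibroblast-like cells was at 22.3 and 11.5 CPM (-0.96, -1.36 to -0.58).

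Endothelial-like cells, nearly all of them in cluster 18 in both libraries, held members in both directions, as did all genes of the class. The 8 of 27 lower and 6 higher lie near the 26.0% and 18.9% of all genes, so the counts do not set the members apart. Higher in the cKO library were Rsad2 (viperin, which makes a chain-terminating nucleotide) at 50.7 and 104 CPM (1.04, 0.61 to 1.47), Tap1 at 20.9 and 47.3 CPM (1.18, 0.52 to 1.84) and Parp14 at 61.6 and 148 CPM (1.26, 0.89 to 1.63). Rtp4, lower in macrophage-like cells, was at 87.9 and 129 CPM here (0.55, 0.20 to 0.91). Lower were Xaf1 at 78.5 and 35.5 CPM (-1.14, -1.76 to -0.57), Psmb9 (-0.85, -1.70 to -0.07), Ifi35 (-0.70, -1.23 to -0.20) and Bst2 at 577 and 391 CPM (-0.56, -0.74 to -0.38). Ifitm3 and H2-D1, at -0.24 and -0.05, stayed within 0.5 log2.

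The share of cells with antiviral transcripts was read over 15 members (the ISG15, IFIT and sensor genes and the effectors without Bst2 and Ifi27), with each cell thinned to 1000 UMIs to set depths equal. At least 1 such UMI was found in 45.5% (40.6 to 50.4) of flox and 22.6% (16.4 to 29.7) of cKO macrophage-like cells. Without thinning these shares were 81.0% and 53.0%. After thinning, mural-like cells had 37.0% and 18.3%, other glia 28.3% and 18.5%, and fibroblast-like cells 15.4% and 8.43%. Endothelial-like cells had 50.9% and 52.0%, and neuron-like cells 7.90% and 8.72%. No class is known to lack these genes, so no background could be set. The lowest share was 1.62% of 494 flox oligodendrocyte-like cells, and the cKO library held 0 cells of that class. Without thinning, 40.7% of flox and 10.4% of cKO macrophage-like cells held 3 or more of the 15 genes, at medians of 4542 and 3677 UMIs. For the single gene Isg15 the thinned shares were 14.3% and 4.27% in macrophage-like cells, 22.5% and 24.3% in endothelial-like cells and 0 of 494 in oligodendrocyte-like cells.

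Antiviral UMIs were spread unevenly over the cells. In flox macrophage-like cells the top 21 of 420 cells held 26.9% of them, and 1 cell held 12 of the 15 genes. In flox myelinating-Schwann-like cells the top 85 of 1706 cells held 46.9%.

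**Figure D3:**
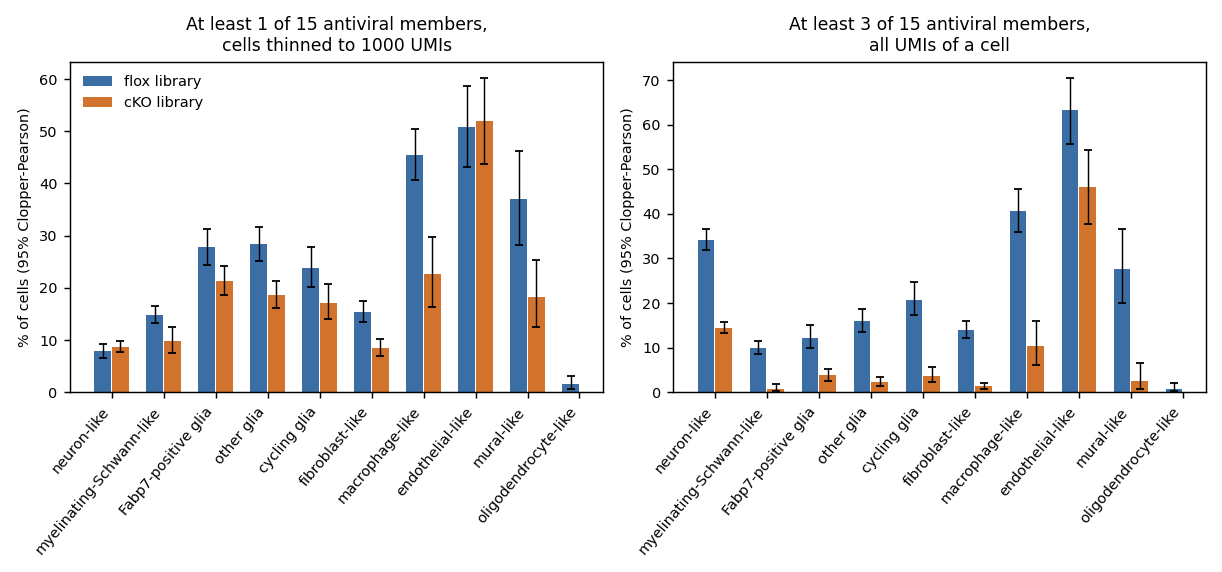
Share of cells (%) with at least 1 of 15 antiviral members after thinning to 1000 UMIs (left) and with at least 3 at full depth (right), by class and library, with 95% Clopper-Pearson intervals. Macrophage-like and mural-like bars differ between the libraries in both panels, endothelial-like bars are level on the left, and the right panel is not corrected for the deeper flox cells.

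A subset of fibroblast-like cells that expresses Wnt4, a secreted Wnt ligand, was found mostly in the flox library, with 359 flox and 31 cKO cells, and 316 of the 359 lay in cluster 16 (337 flox and 3 cKO fibroblast-like cells). In the flox library these cells had higher levels of several members than the other 927 fibroblast-like cells, which compares cells of 1 library. Of 29 measured members 13 were higher by 0.5 log2 and 2 lower, beside 10.7% and 23.9% of all genes, and the member median was 0.41 against -0.16 for all genes. Bst2 was at 225 CPM in Wnt4-positive and 58.0 CPM in other cells (1.96, 1.79 to 2.13). Usp18 was at 12.7 and 3.36 CPM (1.92, 1.20 to 2.66), Ifit3 at 26.8 and 9.67 CPM (1.47, 1.03 to 1.92) and Irf7 at 21.3 and 8.19 CPM (1.38, 0.89 to 1.87). H2-D1 went the other way, at 58.1 and 92.6 CPM (-0.67, -0.89 to -0.46), and so did Ddx58 at 17.2 and 26.2 CPM (-0.61, -1.02 to -0.21).

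Without the Wnt4-positive cells, 13 of 26 measured members were still lower in cKO fibroblast-like cells and 1 higher, beside 18.7% and 6.64% of all genes, with a median of -0.54 in place of -0.77. The ratio of Bst2, -1.75 with those cells, was -0.71 without them, at 57.99 and 35.5 CPM. Isg15 was at 29.3 and 15.7 CPM (-0.90, -1.26 to -0.54), Ifit3 at 9.67 and 4.54 CPM (-1.09, -1.77 to -0.44) and Irf7 at 8.19 and 4.22 CPM (-0.96, -1.68 to -0.27). Xaf1 (-1.40, -1.85 to -0.97) and Ddx58 (-1.11, -1.51 to -0.71) were no closer between the libraries than with those cells. In the 3 clusters that both libraries filled the member medians were -0.40 (cluster 5, 8 of 19 lower), -0.54 (cluster 11, 9 of 17) and -0.34 (cluster 13, 5 of 14), beside 16.6%, 20.4% and 18.2% of all genes lower.

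**Figure D4:**
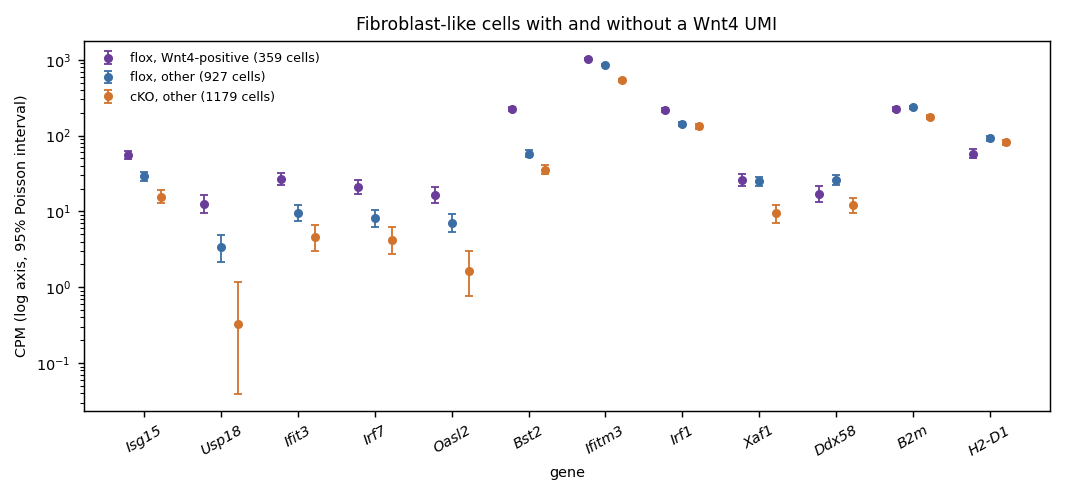
Level in CPM (log axis, 95% Poisson interval) of 12 members in flox Wnt4-positive (purple), other flox (blue) and other cKO (orange) fibroblast-like cells. Bst2, Usp18, Ifit3 and Irf7 fall from purple to blue to orange, whereas Xaf1 is level in both flox groups and lower in the cKO library.

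In neuron-like cells all 32 members reached 50 UMIs, and several differed widely between neuronal clusters in both libraries. Ifit3 was at 11.6 and 8.07 CPM (-0.52, -0.69 to -0.35), Ifitm3 at 8.85 and 15.8 CPM (0.83, 0.68 to 0.99), and Gbp2 at under 1 CPM in both libraries. Clusters 6, 15 and 22 held 814, 398 and 192 cKO neuron-like cells against 52, 58 and 1 of the flox library. In 5 clusters with at least 100 cells of each library, 22 of 31 members peaked in the same cluster in both libraries and 21 were lowest in the same one. The share of all genes that did so is not given here, so these counts do not set the members apart from other genes. Ifit1 was highest in cluster 9, led by Mrgprd, a receptor of non-peptidergic nociceptors, with 24.997 CPM among flox and 36.6 CPM among cKO cells. In cluster 17, led by Ntrk3, the receptor of proprioceptors and mechanoreceptors, Ifit1 was at 0.45 and 3.94 CPM, and in cluster 19, led by Tafa4, at 0.60 and 0.34 CPM. Ifit3 peaked instead in cluster 8, led by the itch receptor gene Mrgpra3, at 36.9 and 18.3 CPM, and had 1 UMI in flox and 0 in cKO cells of cluster 19. H2-D1 was at 230.1 and 135 CPM in cluster 9 (-0.77) and at 54.2 and 58.0 CPM in cluster 17 (0.10). Irf1 was higher in cluster 9 of the cKO library, at 9.32 and 29.3 CPM (1.65), and closer in cluster 12, at 22.3 and 27.1 CPM (0.28).

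**Figure D5:**
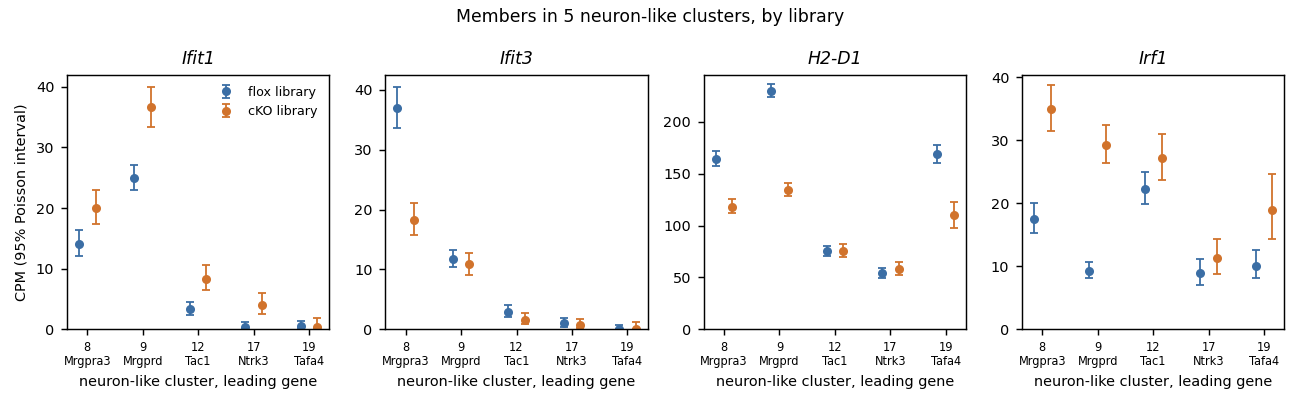
Level in CPM with 95% Poisson interval of Ifit1, Ifit3, H2-D1 and Irf1 in 5 neuron-like clusters, named by number and a leading gene, in the flox (blue) and cKO (orange) library. Ifit1 and Ifit3 are higher in clusters 8 and 9 than in clusters 17 and 19 of both libraries.

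Other genes of the pathway came from a list of 98 genes. Interferon genes were almost absent, and none of the 10 ligands reached 50 UMIs in any class. Ifnb1, the gene of interferon beta, had 34 UMIs in 5 of 420 flox macrophage-like cells (1.19%, 0.388 to 2.76), 25 of them in 1 cell, and 0 UMIs in 164 cKO macrophage-like cells, which at a floor of 3 cells allows a share of cells with an Ifnb1 UMI of up to 1.83% and says nothing of cells whose transcripts were missed. The cell with 25 UMIs held 1 of the 15 antiviral members, and the others held 3, 5, 8 and 8. In macrophage-like cells 21 of 60 measured pathway genes were lower and 9 higher, where all genes had 21.2% lower and 11.6% higher. The receptor genes were not lower, with Ifnar1 at 47.1 and 97.9 CPM (1.06, 0.58 to 1.52) and Ifnar2 at 203 and 281 CPM (0.47, 0.21 to 0.72), and Jak1 was at 185 and 171 CPM.

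In fibroblast-like cells 26 of 62 pathway genes were lower and 2 higher (all genes 18.2% and 8.36%), and the lower ones included the chemokine gene Cxcl10 at 160.2 and 45.4 CPM (-1.82, -2.002 to -1.64). Endothelial-like cells had 12 of 50 lower, near the 26.0% of all genes, and 12 higher (18.9%), with Cxcl10 at 468 and 131 CPM (-1.83, -2.13 to -1.55) and the GTPase gene Iigp1 at 173 and 449.8 CPM (1.38, 1.17 to 1.59). Other glia had 14 of 37 lower and 2 higher (18.1% and 9.38%), and myelinating-Schwann-like cells 13 of 40 and 5 (16.4% and 12.7%). Neuron-like cells had 4 of 65 lower and 16 higher (4.43% and 9.20%).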

How the data were processed

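Single-cell 3′ RNA counts of dorsal root ganglia were used from 1 flox and 1 cKO library, with samples grouped by the genotype in their labels. The deposited values are raw UMI counts per gene and barcode, written by cellranger 6.1.2 per the file headers, while the submitters' processing notes name Cell Ranger 5.0.1, Scanpy and mm10. The libraries held 10014 and 9703 barcodes and 132620886 and 78144437 UMIs. A cell needed at least 1000 UMIs and 500 genes, with mitochondrial UMIs making up no more than 15%. Scrublet's own cut marked 0 and 2 doublets, so the highest-scoring 607 and 569 cells were removed, at 0.8% per 1000 cells.

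Each cell took the class of its highest marker score. UMIs were summed per class and library and scaled to CPM of the class total (numpy 2.4.6, scipy 1.17.1, scanpy 1.11.5). Intervals were exact Poisson for levels, exact conditional binomial for ratios and Clopper-Pearson for shares, all at 95%. Clusters came from Leiden at resolution 1.0, with the members left out of the 2000 variable genes. No genotype test was possible. The counting intervals were run on simulated Poisson counts of whole classes. They hold there by construction, so the simulation says nothing of UMIs spread unevenly over cells or of differences between mice.

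Members and lists were chosen with earlier results of these data known. Named with values were the 6 highest members, the 6 with the interval bound farthest from no difference, those 0.5 log2 or more apart with an interval that leaves out 0, and Isg15, Ifit3, Irf7, Stat2, Bst2, B2m and H2-D1 in each class where measured. The text gives a selection of the former and counts for the rest, and pathway genes were picked from the list of 98 after their values were seen. Alternatives were TMM factors (edgeR 4.0.16), cell-mean CPM, thinning, other filters, strict gating, classes from clusters and the Wnt4 definitions. Values within single clusters, neuron-like cells of at least 10000 UMIs and the removal of clusters under 10 cKO cells were added after seeing the data. Results for some genes are not reported here.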

Additional observations from a re-analysis of the deposited data

Results flagged for a closer look

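In 9 members the cKO to flox ratio was higher by at least 0.5 log2 in one cell class and lower by at least 0.5 log2 in another. The share of all genes that did so is not given here, so this count does not set the members apart from other genes. Each difference between classes was not tested, since each class has 1 library per genotype.

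Irf1 differed by 3.24 log2 between neuron-like cells (0.97) and other glia (-2.27), and Ifitm3 by 3.01 between neuron-like (0.83) and myelinating-Schwann-like cells (-2.17). The immunoproteasome gene Psmb8 differed by 1.88 between neuron-like (0.68) and myelinating-Schwann-like cells (-1.20), and Gbp3 by 2.04 between neuron-like (0.89) and fibroblast-like cells (-1.15).

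In the other 5 members the higher class was endothelial-like. Rtp4 differed by 2.94 from fibroblast-like cells (0.55 against -2.39), Rsad2 by 2.14 from macrophage-like cells (1.04 against -1.10) and Parp14 by 2.06 from macrophage-like cells (1.26 against -0.80). Tap1 differed by 2.13 from myelinating-Schwann-like cells (1.18 against -0.94) and Stat2 by 1.64 from other glia (0.59 against -1.05).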

How the results depend on the processing

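No paired analysis was possible because each genotype has 1 library and the labels give no shared replicate numbers. The median ratio of endothelial-like cells, -0.05, lay near 0 and was 0.05 with TMM factors; the medians of the other classes kept their sign under every alternative. The median ratio ranged from -0.85 to -0.36 in macrophage-like, -0.79 to -0.35 in fibroblast-like, -0.94 to -0.38 in myelinating-Schwann-like and -0.75 to -0.51 in mural-like cells, and from -0.21 to 0.05 in endothelial-like cells. Thinning to 1000 UMIs left fewer members at 50 UMIs, and the number of lower members became 4 of 10 in macrophage-like, 4 of 12 in fibroblast-like (median -0.35), 6 of 10 in myelinating-Schwann-like, 8 of 16 in other glia, 3 of 9 in cycling glia, 3 of 6 in mural-like, 1 of 8 in endothelial-like and 2 of 12 in neuron-like cells. Under the same thinning 22.5% of all measured genes were lower in macrophage-like, 17.2% in fibroblast-like and 17% in myelinating-Schwann-like cells. The share was 16.7% in other glia, 15.7% in cycling glia and 24.3% in mural-like cells. It was 18% in endothelial-like cells, whose count lies below it, and 16.6% in neuron-like cells, whose count is close to it. The thinned count of Fabp7-positive glia is not given here. For the alternatives that follow, the shares of all genes are not given, so their counts stand without that comparison. In endothelial-like cells the 8 lower members became 5 with TMM factors, 3 with cell-mean CPM and 5 at a minimum of 100 UMIs. In mural-like cells they became 15 of 22 at a minimum of 20 UMIs. With classes from clusters Fabp7-positive glia had 3 lower members in place of 9. Neuron-like cells had 2 lower with cell-mean CPM and 3 among cells of at least 10000 UMIs. Without fibroblast-like clusters in which at least 25% of cells held Wnt4, 13 of 26 members were lower (median -0.51). Without the cluster of under 10 cKO cells, 18 of 27 were lower in macrophage-like cells (median -0.82). Depth limits mural-like cells most, where 10 of 32 members reached the minimum.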

Other observations

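The following interferon-stimulated and signalling genes outside the 34 listed were chosen after their values were seen. Ifitm1, a gene beside Ifitm2 and Ifitm3 on chromosome 7, was at 10.7 CPM in flox and 101 CPM in cKO macrophage-like cells (3.24, 2.53 to 4.002). In mural-like cells Ifitm1 was lower in the cKO library, at 293 and 73.3 CPM (-2.0, -2.58 to -1.47). Zbp1, a sensor of Z-form nucleic acid, was lower in macrophage-like cells (-1.54, -2.41 to -0.76), as was Lgals3bp, a secreted glycoprotein (-1.50, -2.16 to -0.90). In endothelial-like cells Stat3, a signalling factor, was higher in the cKO library, at 101 and 247 CPM (1.29, 1.00 to 1.57).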
